A study of Mus musculus with 4 samples.

Results

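The distal part of mouse chromosome 15, from 80 Mb to the last listed peak, held 336 of the 4638 Zac1 peaks in the deposited table (7.24%) and 336 of the 591 on this chromosome. Its members are the peaks on chromosome 15 whose midpoint lies at or above position 80000000 of the genome build mm9. They ran from 80000735 to 103209424. Within the list they were chosen by position, and every listed peak had already been picked on its reads by the authors' peak caller. The members nearest to the boundary were the peaks at chr15:80000735-80000763, with 67 ChIP and 4 input reads, and at chr15:80004191-80004925, with 194 ChIP and 8 input reads. The nearest peaks outside it lay at chr15:79990400-79990493, with 65 ChIP and 6 input reads, and at chr15:79989963-79990055, with 126 ChIP and 12 input reads.

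Zac1, also named Plagl1, is a zinc finger transcription factor that binds GC-rich DNA. Its gene is imprinted, that is, expressed from the paternal allele in most tissues, and it is known for arresting the cell cycle, for promoting apoptosis and for regulating other imprinted genes. In chromatin immunoprecipitation with sequencing (ChIP-seq), DNA crosslinked to a factor is precipitated with an antibody and sequenced, and a binding site shows as a local excess of reads over input, the same kind of chromatin without precipitation. Reads from the 2 strands flank a site, so the forward summit is usually found before the reverse one. Distal mouse chromosome 15 corresponds to parts of human chromosomes 22 and 12 and carries the Hoxc genes, homeobox factors that pattern the body axis, and the keratins of the type II cluster, structural proteins of epithelial cells. On the assembly GRCm38.p6, whose gene table was used for names and neighbours only, the 9 Hoxc genes of chromosome 15 follow each other without another protein-coding gene between them. The 26 keratin genes there, Krt80 to Krt18, have 1 other protein-coding gene among them. Peaks are on mm9 and positions were not converted, so no peak is assigned to a gene here and no sequence is printed.

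The study asked where Zac1 binds in Neuro-2A, an established mouse neuroblastoma cell line labelled as derived from the strain Swiss Albino. Its groups are chromatin precipitated with an in-house anti-Zac1 antibody (ChIP, 2 libraries) and input chromatin with no antibody (2 libraries). Cells of both groups were transfected with the expression plasmid pRK5-Zac1 by Lipofectamine and fixed with paraformaldehyde 16 hours later, so all libraries carry overexpressed Zac1 in 1 cell line. The table gives 1 ChIP and 1 input value per peak, and whether both libraries of a group entered it is not stated. No difference below has a replicate check or a p-value, and the intervals are exact 95% intervals that cover counting error only. PCR copies of a molecule cannot be told from separate molecules in these reads.

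The 336 distal peaks were densely packed and held more reads of both kinds than the rest of the list, with a somewhat lower excess of ChIP over input. They contained 32348 ChIP and 1897 input reads. After input reads were multiplied by the authors' scaling constant of 0.696, recovered from the deposited folds, this was a 24.5-fold excess (95% interval 23.4 to 25.7). The other 4302 peaks contained 355808 ChIP and 18424 input reads, a 27.7-fold excess (27.3 to 28.2). The distal peaks stood at 0.883 times the fold of the others (0.841 to 0.927), a ratio from which the scaling constant cancels. All listed regions had been picked for enrichment by the peak caller from the same reads, so these folds are descriptive and do not test binding.

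Density was uneven along the 24 windows of 1 Mb from 80 Mb to 104 Mb. They averaged 14.0 peaks (median 11), against 1.69 in the other 2548 windows, counted on every chromosome as far as its last peak (median 0). Other dense stretches held more peaks per window than the distal part, with a mean of 22.1 from 70 to 80 Mb of chromosome 15, 23.7 from 120 to 130 Mb of chromosome 8 and 24 from 130 to 140 Mb of chromosome 4. At least 10 peaks were listed in 15 of the 24 windows (62.5%), against 121 of the other windows (4.75%). The fullest window was that from 102 to 103 Mb with 42 peaks, the sixth most in the whole table, followed by 85 to 86 Mb with 36 and 82 to 83 Mb with 31. Windows from 99 to 100 Mb and from 101 to 102 Mb held 27 each, and that from 84 to 85 Mb held 25. At 98 to 99 Mb there were 22 peaks, at 83 to 84 Mb and at 97 to 98 Mb 19 each, at 88 to 89 Mb 18 and at 100 to 101 Mb 15.

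The peaks formed a proximal and a distal block with a nearly empty stretch between them. From 80 to 90 Mb there were 171 peaks and from 96 Mb onward 163. Between 90 and 96 Mb lay only 2 peaks. The first of these, at chr15:91128510-91128550, had 64 ChIP and 3 input reads, and the other, at chr15:94420073-94420135, had 47 ChIP and 3 input reads, both under the median of 83 ChIP reads for all 336. Their nearest neighbours were 1765012 and 2053222 bp away. Empty windows numbered 5 of 24 (20.8%), at 87, 90, 92, 93 and 95 Mb, against 1767 of 2548 elsewhere (69.3%).

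The blocks, whose limits were set after the positions were seen, did not differ in reads per peak beyond counting error. The block from 96 Mb had 96.7 ChIP reads per peak and that from 80 to 90 Mb had 96.3, a ratio of 1.00 (0.982 to 1.03). Input reads per peak were 5.45 in the block from 96 Mb and 5.86 in the block from 80 to 90 Mb, a ratio of 0.931 (0.849 to 1.02). The fold was 25.5 (23.8 to 27.3) in the block from 96 Mb and 23.6 (22.2 to 25.2) in the block from 80 to 90 Mb, a ratio of 1.08 (0.982 to 1.19). All 3 intervals include 1, and they allow the fold to be up to 1.19 times as high in the block from 96 Mb.

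Among the 16 windows with at least 9 peaks the fold ran from 20.6 to 31.4. It was under the 27.7-fold of the other peaks in 13 windows, and the whole interval lay under it in 6. None lay wholly above it. The lowest folds were 20.6 at 86 to 87 Mb (15.9 to 27.2) and 20.9 at 83 to 84 Mb (17.4 to 25.3). The highest was 31.4 at 100 to 101 Mb (24.6 to 40.9), where input reads were also fewest, at 4.40 per peak. In all 16 windows input reads per peak exceeded the 4.28 of the other peaks, reaching 7.20 at 80 to 81 Mb. ChIP reads per peak exceeded the 82.7 of the other peaks in 14 of them.

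**Figure D1:**
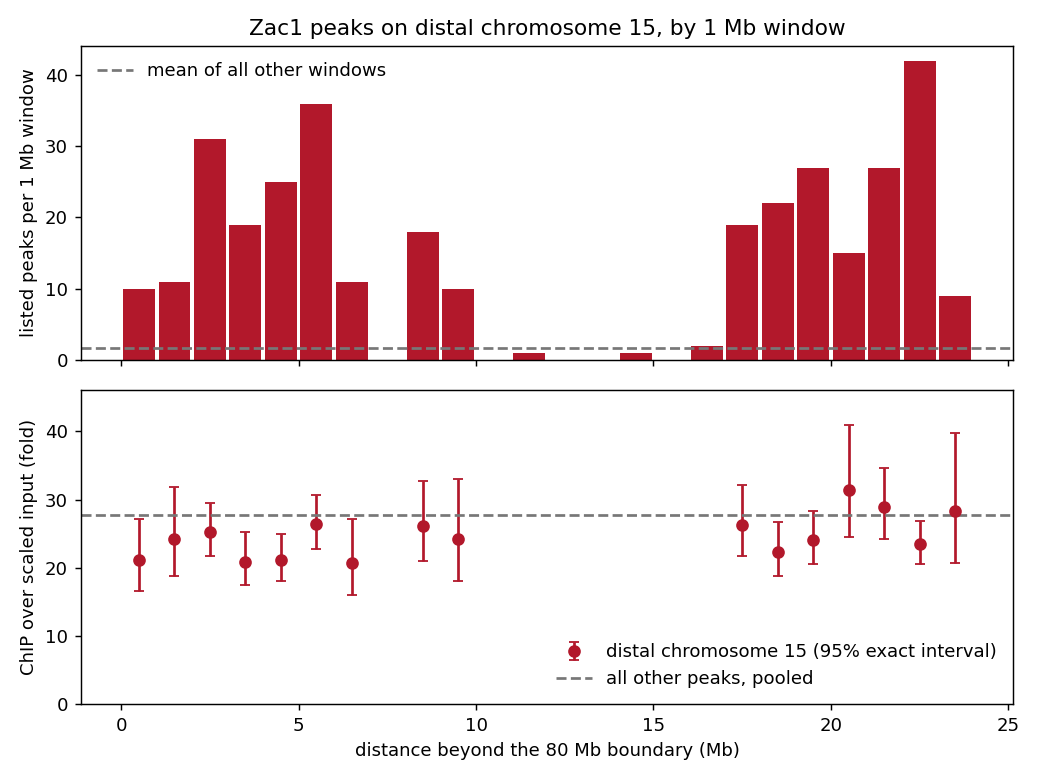
Number of listed Zac1 peaks (upper panel) and ChIP over scaled input with its exact 95% interval (lower panel, windows with at least 9 peaks) against the distance beyond the 80 Mb boundary of chromosome 15, in 1 Mb windows. Dashed lines give the mean of 1.69 peaks in all other windows and the 27.7-fold of all other peaks. The windows fall into 2 blocks, and 6 of the 16 intervals lie wholly under the dashed fold.

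ChIP reads per peak were higher at each quartile, not at a few sites alone. The distal peaks held a median of 83 ChIP reads (interquartile range 64 to 118, full range 41 to 382), and the other peaks 74 (59 to 96, full range 35 to 409). Means were 96.3 ChIP reads in the distal peaks and 82.7 in the others, a ratio of 1.16 (1.15 to 1.18). At least 150 ChIP reads were found in 39 distal peaks (11.6%) and in 210 of the others (4.88%). This share was 9.95% from 70 to 80 Mb of chromosome 15. It was 7.17% from 120 to 130 Mb of chromosome 8 and 7.08% from 130 to 140 Mb of chromosome 4. In the busiest window of a peak, the median was 38 ChIP reads in the distal peaks and 35 in the others, and the ratio of means was smaller, 1.09 (1.07 to 1.11).

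Input reads per peak differed by a larger factor than ChIP reads. The median was 5 input reads in the distal peaks (interquartile range 3 to 7, highest 31) and 4 in the others (2 to 6, highest 57). Means were 5.65 input reads in the distal peaks and 4.28 in the others, a ratio of 1.32 (1.26 to 1.38). In the busiest windows this ratio was 1.20 (1.12 to 1.28). No input read was recorded in 9 distal peaks (2.68%) and in 233 of the others (5.42%). In the dense stretches this share was 1.81% (70 to 80 Mb of chromosome 15), 1.69% (120 to 130 Mb of chromosome 8) and 2.92% (130 to 140 Mb of chromosome 4).

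**Figure D2:**
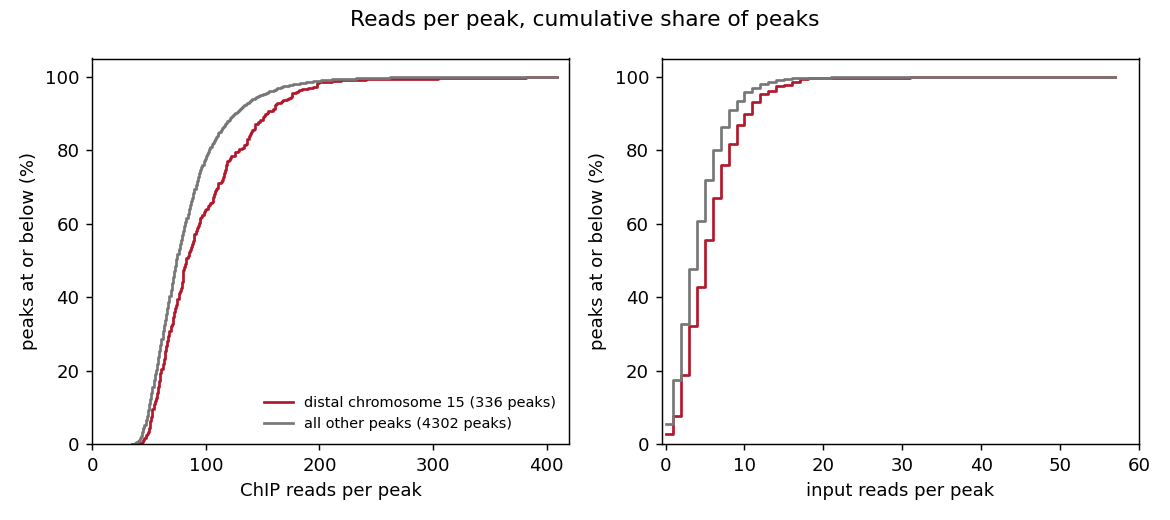
Cumulative share of peaks (%) against ChIP reads per peak (left) and input reads per peak (right) for the 336 distal peaks and the 4302 other peaks. The curve of the distal peaks lies to the right in both panels, with medians of 83 ChIP and 5 input reads in the distal peaks and 74 ChIP and 4 input reads in the others.

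Because peaks with more ChIP reads also hold more input reads, input was compared among peaks of similar ChIP reads, in classes set after the data were seen. Among peaks with fewer than 60 ChIP reads, the distal peaks had 2.81 and the others 2.80 input reads per peak, a ratio of 1.00 (0.851 to 1.17). With 60 to 79 ChIP reads the values were 4.47 in the distal and 3.64 in the other peaks (ratio 1.23, 1.11 to 1.36). With 80 to 99 they were 5.52 in the distal and 4.64 in the other peaks (1.19, 1.06 to 1.32), and with 100 to 149 they were 7.33 in the distal and 5.95 in the other peaks (1.23, 1.13 to 1.34). With 150 or more, the distal peaks had 9.23 and the others 8.68 (1.06, 0.947 to 1.19). The 3 middle classes, which hold 239 of the 336 distal peaks, thus had more input in the distal peaks beyond counting error, while the interval included 1 in the lowest and the highest class. Across peaks, the Spearman correlation of ChIP with input reads was 0.57 in the 336 distal peaks and 0.42 in the 4302 others. These peaks share libraries and differ in length, so it is a description only.

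**Figure D3:**
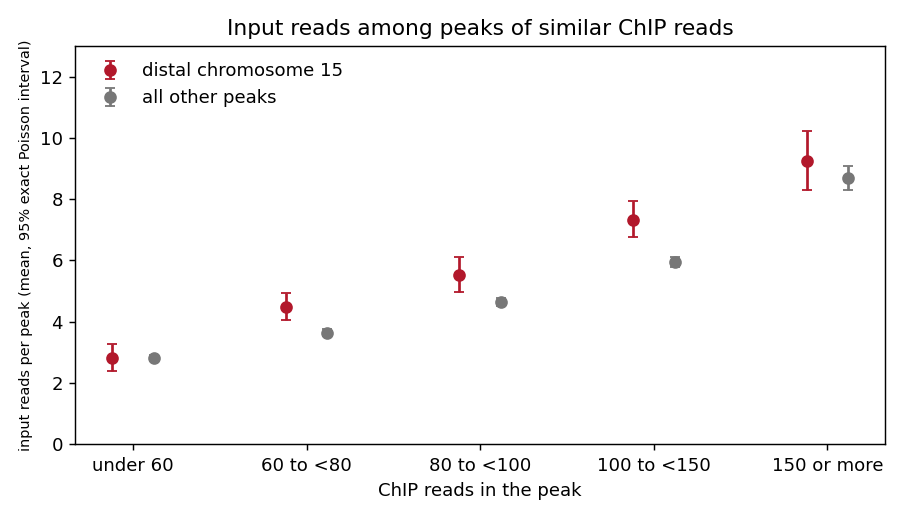
Mean input reads per peak with exact 95% Poisson intervals, for peaks grouped by their ChIP reads, in the distal peaks of chromosome 15 (left of each pair) and in all other peaks (right). Distal peaks are higher from 60 to 149 ChIP reads, and the intervals overlap in the lowest and highest class.

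Set beside the dense stretch just before it, the distal part did not differ beyond counting error. The 221 peaks from 70 to 80 Mb of chromosome 15 had 95.3 ChIP and 5.33 input reads per peak and a 25.7-fold excess (24.2 to 27.3). The distal peaks stood at 1.01 times their ChIP reads (0.993 to 1.03), 1.06 times their input reads (0.984 to 1.14) and 0.954 times their fold (0.884 to 1.03), and all 3 intervals include 1. Against the 237 peaks from 120 to 130 Mb of chromosome 8, the distal peaks had 1.09 times the ChIP reads (1.07 to 1.11), 0.994 times the input reads (0.927 to 1.07) and 1.09 times the fold (1.02 to 1.18). The 240 peaks from 130 to 140 Mb of chromosome 4 had fewer reads of both kinds, so that the distal peaks stood at 1.12 times their ChIP reads (1.10 to 1.14), 1.22 times their input reads (1.13 to 1.32) and 0.917 times their fold (0.849 to 0.990). The lower fold of the distal peaks relative to the whole list was therefore not found relative to the chromosome 8 stretch, where the direction was the opposite.

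To count strongly enriched members, a peak was called when the lower 95% limit of its fold exceeded 10. This held for 184 of 336 distal peaks (54.8%), against 58.3% of all 4638 listed peaks. At a limit of 5 it held for 331 distal peaks (98.5%), against 97.6% of all peaks. Both shares lie near those of the whole list. The false discovery rate in the authors' deposited table was 0 to 6 decimals in 336 of 336 distal peaks, as in 4631 of all 4638 listed peaks, so it does not set the distal peaks apart. The log2 of the largest window fold in the authors' deposited table had a median of 5.00 over the distal peaks (3.08 to 6.25) and of 4.95 over the others (2.42 to 6.36).

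In the authors' ranking, distal members, 7.24% of the list, filled 4 of the 9 listed places among the first 10. They filled 15 of the 97 listed among the first 100 and 92 of the 993 listed among the first 1000. The first 100 took in 4.46% of distal peaks, 2.09% of all listed peaks and 4.52% of those from 70 to 80 Mb. For the first 1000 these shares were 27.4% of distal peaks, 21.4% of all listed peaks and 30.3% of those from 70 to 80 Mb. The best placed distal peak was the 556 bp one at chr15:82997449-82998004, ranked 5, with 241 ChIP reads and 16 input reads (21.6-fold, 13.1 to 38.5). The next, at chr15:102841829-102841891, had rank 6 and 140 ChIP reads against 5 input reads (40.2-fold, 16.8 to 126). Rank 7 went to the peak at chr15:99257812-99257844, whose 382 ChIP reads were the most of any distal peak and faced 11 input reads (49.9-fold, 27.6 to 101). The peak of rank 10, at chr15:97631634-97631666, had 211 ChIP reads and 9 input reads (33.7-fold, 17.4 to 74.7).

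The other 6 of the best ranked 10 had 107 to 185 ChIP reads. All of these except the peak of rank 20 lay in the proximal block. At chr15:81527583-81527612 (rank 12), 167 ChIP reads stood against 8 input reads (30.0-fold, 14.9 to 70.6). At chr15:82014764-82014801 (rank 16), 185 ChIP reads stood against 5 input reads (53.2-fold, 22.4 to 166), and this was the only one of the 10 without another peak within 10 kb. The peak at chr15:101180340-101180392 (rank 20) had 161 ChIP and 4 input reads. That at chr15:85343022-85343636 (rank 26) had 173 ChIP and 4 input reads and the highest fold of the 10 (62.1-fold, 23.8 to 231). The peak at chr15:84494196-84494233 (rank 33) had 107 ChIP and 4 input reads, the fewest ChIP reads of the 10. The last, at chr15:83000827-83001284 (rank 37), had 176 ChIP and 11 input reads (23.0-fold, 12.5 to 46.9). All 10 were called, as were 89.4% of the 1000 best ranked of all listed peaks. Of the 10, 7 were shorter than 100 bp, and in the other 3 the order of the strand summits was inverted. Intervals of these folds overlap broadly, so they set no order among the 10.

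**Figure D4:**
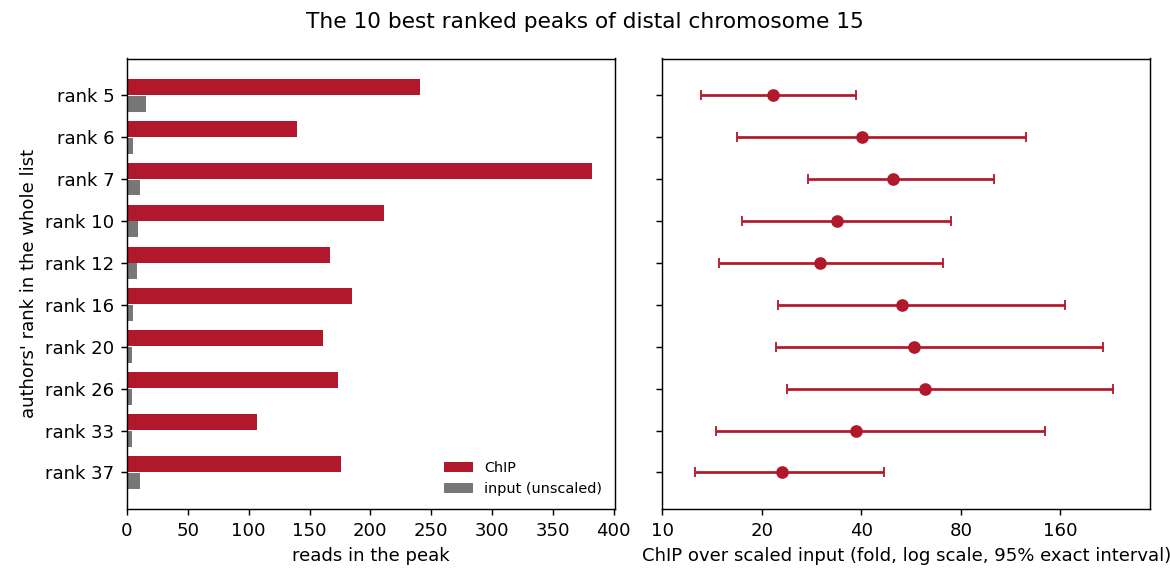
ChIP and unscaled input reads (left) and ChIP over scaled input on a log axis with exact 95% intervals (right) for the 10 best ranked distal peaks, from rank 5 at the top to rank 37. ChIP reads run from 107 to 382 against 4 to 16 input reads, and the intervals of the folds overlap.

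Ordered by ChIP reads instead, the second distal peak was that at chr15:99438250-99438512, ranked 41, with 304 ChIP reads. It also had the most input reads of all 336, 31, and its 14.1-fold excess (9.72 to 21.1) was not called. The peak at chr15:102065679-102065935 had 219 ChIP and 5 input reads (62.9-fold, 26.6 to 196). At chr15:100895536-100895641, 200 ChIP reads stood against 2 input reads (144-fold, 39.3 to 1194). With 198 ChIP reads each there followed the peaks at chr15:97656603-97656799 (11 input reads), at chr15:98682820-98683282 (5 input reads) and at chr15:101054602-101054648 (9 input reads). The tenth was the boundary peak at 80004191 with 194. Of these 10, the peaks at 97656603 and 98682820 had ranks of 622 and 1642, so many reads over a region did not always place a peak high in the authors' order.

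The lowest fold of the 336 was 5.93 (3.39 to 10.96), at chr15:83107940-83107968, where 66 ChIP reads faced 16 input reads. Next came the peak at chr15:102899554-102899693 with 63 ChIP and 12 input reads (7.54-fold, 4.03 to 15.4) and that at chr15:98503178-98503264 with 60 ChIP and 11 input reads (7.84-fold, 4.08 to 16.5). The peak at chr15:83492574-83492906 had 73 ChIP and 13 input reads (8.07-fold) and that at chr15:89026805-89026844 had 67 ChIP and 10 input reads (9.62-fold). These 5 had no other listed peak within 10 kb, and their authors' ranks were 4184 to 4676 of at most 4688. After the peak with 31 input reads, most input was found at chr15:84281551-84281657 (143 ChIP and 18 input reads), and 17 input reads were found at chr15:80173555-80173583 (152 ChIP reads), at chr15:86309354-86309405 (181 ChIP reads) and at chr15:101782708-101783194 (139 ChIP reads). None of these 4, picked for their many input reads, was called, against 58.3% of all listed peaks.

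High folds rested on few input reads. With 1 input read, the peak at chr15:80848503-80848544 had 117 ChIP reads (168-fold, 29.6 to 6695), that at chr15:88563760-88564214 had 111 (159-fold, 28.0 to 6354), that at chr15:82798864-82799270 had 97 (139-fold, 24.4 to 5560) and that at chr15:85824058-85824090 had 88 (126-fold, 22.1 to 5049). The 9 distal peaks without input reads held 44 to 85 ChIP reads (median 58). Taken against a floor of 3 input reads per peak, their folds were at least 21.1 to at least 40.7, the last at chr15:103108438-103108493. This floor leaves out the counting error of the ChIP reads, and the exact lower 95% limits of the 9 folds were 16.4 to 32.4. All 9 were called, but without input reads this limit depends on the ChIP reads alone. The calls therefore add nothing about these 9 peaks.

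Distal peaks often came in runs. Another peak lay within 10 kb, between midpoints, of 196 of the 336 (58.3%), against 1711 of the other 4302 (39.8%), and the median distance to the nearest peak was 6111 bp in the distal peaks and 16433 bp in the others. Nearest distances shrink where peaks are dense, and the share was 65.6% in the 70 to 80 Mb stretch of the same chromosome, 66.7% in the chromosome 8 stretch from 120 to 130 Mb and 59.2% in the chromosome 4 stretch from 130 to 140 Mb. After joining of peaks with gaps of up to 10 kb, the 336 peaks made 206 regions: 140 single peaks, 39 pairs, 9 runs of 3, 8 of 4, 6 of 5, 2 of 6, 1 of 7 and 1 of 10. The 18 runs of 4 or more took in 91 peaks (27.1%), against 12.3% of the other peaks.

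Peaks in these 18 runs had a median of 99 ChIP reads, and the single peaks 78. The fold was 26.9 (24.7 to 29.4) in the runs and 23.1 (21.4 to 24.9) in the single peaks. The lower limit exceeded 10 in 56 of 91 peaks in such runs (61.5%) and in 70 of 140 single peaks (50.0%), set against 58.3% of all listed peaks. Regions of neighbouring peaks can share reads of 1 broad site, so the members of a run are not independent.

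The run of 10 peaks extended over chr15:82973590-83004561, over 31.0 kb, across the limit between the 82 and 83 Mb windows. It held 1301 ChIP and 83 input reads, a 22.5-fold excess (18.0 to 28.5). Its peaks had a median of 128 ChIP reads, against 82.5 in the other 326 distal peaks. Gaps between its peaks were 804 to 5796 bp, with a median of 1956 bp. ChIP reads, from the first peak to the last, were 65, 92, 73, 148, 89, 241, 113, 176, 161 and 143, and input reads were 3, 4, 6, 10, 5, 16, 4, 11, 11 and 13. The 5 peaks from the one of rank 5 onward had midpoints within 6815 bp and each had more than 100 ChIP reads. Of the 5 peaks before it, 1 did, the fourth, at chr15:82986382-82986650.

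Folds within the run varied less than its reads. They ran from 15.8 (8.95 to 30.4) in the last peak, at chr15:83004522-83004561, to 40.6 (15.4 to 152) in the seventh, at chr15:82999917-83000023, and all 10 intervals overlap. The lower limit exceeded 10 in 8 of the 10, against 58.3% of all listed peaks, and 10 peaks are too few to compare the shares. The exceptions were the last peak and the third, at chr15:82984770-82984809 (17.5-fold, 7.65 to 49.2). Strands were balanced, with 51.0% of the run's ChIP reads on the forward strand (48.2 to 53.7). The first peak, at chr15:82973590-82973631, had 27 forward and 38 reverse ChIP reads. Its forward share of 41.5% (29.4 to 54.4) does not differ from an even split beyond counting error. Its strand balance in the authors' deposited table, 0.354, was the lowest of all 336, and this value compares folds, so input reads enter it too. Summit order was inverted in 3 of the 10, and the authors' ranks spread from 5 to 3273.

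**Figure D5:**
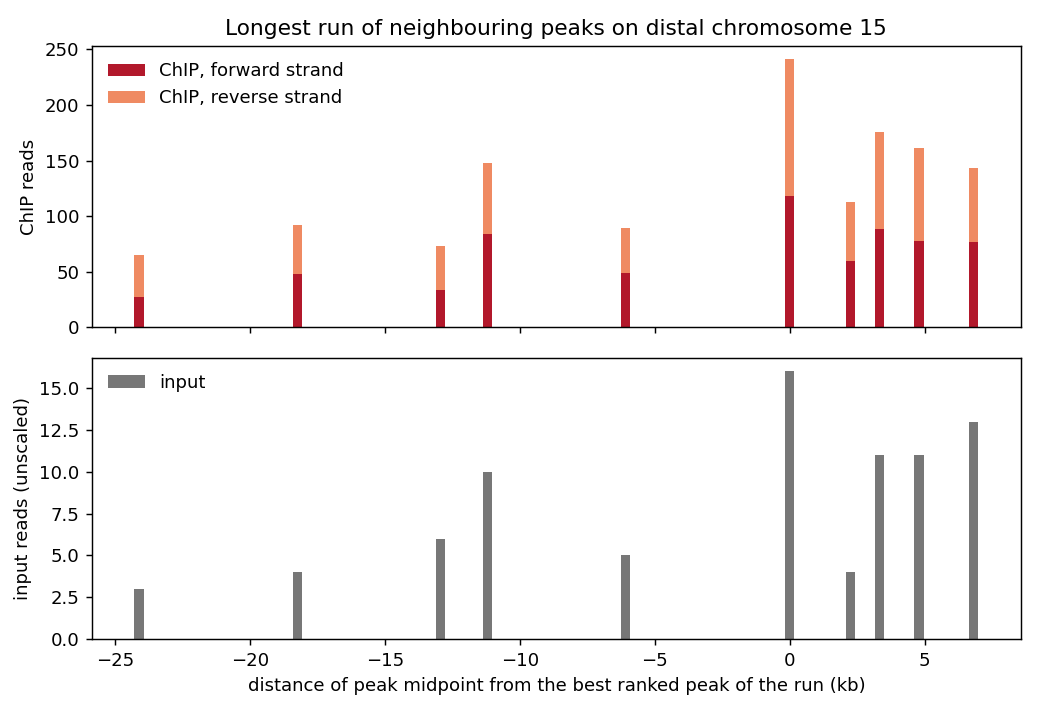
ChIP reads by strand (upper panel) and unscaled input reads (lower panel) of the 10 peaks of the longest run, against the distance of each midpoint from the best ranked peak of the run in kb. The peak at 0 has 241 ChIP and 16 input reads, and the 4 peaks to its right have 113 to 176 ChIP reads.

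Next in number of peaks was a run of 7 peaks at chr15:102828822-102842534, with 637 ChIP and 38 input reads (24.1-fold, 17.4 to 34.3). It contains the peak of rank 6 and lies 15.2 kb beyond a run of 4 at chr15:102808015-102813647, which had 293 ChIP and 14 input reads. The 6 peaks at chr15:99253886-99270959 held 765 ChIP and 25 input reads (44.0-fold, 29.5 to 68.4), of which 382 ChIP reads belong to the peak of rank 7. The other run of 6, at chr15:88669801-88694618, had 644 ChIP and 42 input reads (22.0-fold, 16.1 to 30.9). A run of 4 at chr15:97631634-97645447 and a run of 5 at chr15:97655541-97661938 lay 10.1 kb apart, with 638 ChIP and 25 input reads in the first and 642 ChIP and 36 input reads in the second.

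Folds of the 18 runs spanned 16.7 to 54.2. The highest was that of 4 peaks at chr15:100890327-100897966 with 528 ChIP and 14 input reads (32.0 to 99.8). Close to it were 5 peaks at chr15:82781102-82800124, whose 501 ChIP reads faced 16 input reads (45.0-fold, 27.4 to 79.3) and 4 peaks at chr15:85354259-85370431 with 493 ChIP and 17 input reads (41.7-fold, 25.8 to 72.1). The lowest was that of 5 peaks at chr15:99431411-99439766 whose 640 ChIP reads faced 55 input reads (16.7-fold, 12.7 to 22.4), a run that includes the peak with 31 input reads. The interval of this last run does not overlap those of the runs named before it in this paragraph. These runs were picked from the 18 for the highest and lowest folds, which favours such a gap.

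Both strands contributed evenly. The forward strand carried 49.7% of ChIP reads in the distal peaks (49.1 to 50.2) and 50.1% in the others (49.9 to 50.3), and 49.6% of input reads in the distal peaks and 50.3% in the others. The strand balance in the authors' deposited table, the weaker strand's fold divided by the stronger one's, had a median of 0.826 in the distal peaks and 0.846 in the others. On its weaker strand, every listed peak had a busiest window of at least 16 ChIP reads. Exactly 16 were found in 56 distal peaks (16.7%) and 967 others (22.5%). At least 25 were found in 57 distal peaks (17.0%) and 408 others (9.48%). From 70 to 80 Mb of chromosome 15, 16.3% of peaks had 25 or more. The share was 13.5% in the chromosome 8 stretch and 11.25% in the chromosome 4 stretch. The limit of 25 was chosen after the values were seen, and 2 other limits were tried. At 28 or more the shares were 10.1% of distal peaks and 4.11% of the others, and at 30 or more they were 7.14% of distal peaks and 2.39% of the others. Sites under this minimum were not analysed here.

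Peak length mostly followed the spacing of the strand summits. The reverse summit lay a median of 63 bp beyond the forward summit in the distal peaks (interquartile range 30.8 to 101) and 69 bp in the others (33 to 103), and this distance equalled the listed length in 76.2% of the distal peaks and 77.5% of the others. Median lengths were 86.5 bp in the distal peaks and 83 bp in the others. A length of 200 bp or more was reached by 71 distal peaks (21.1%) and 643 others (14.9%). It was reached by 19.0% of peaks from 70 to 80 Mb of chromosome 15, 14.8% in the chromosome 8 stretch and 12.5% in the chromosome 4 stretch. Summits were inverted or at the same place in 53 distal peaks (15.8%) and 516 others (12.0%). In inverted distal peaks the summit distance was -238 to -1 bp, so it cannot be their listed length. All 53 were among the 71 distal peaks of 200 bp or more, and the other 18 had summits in order. Listed lengths, with medians of 442 bp (inverted) and 76 bp (in order), thus restate the summit order and do not compare the breadth of sites. Inverted distal peaks held a median of 97 ChIP reads, and those with summits in order 80. The fold was 23.8 (21.3 to 26.6) in inverted distal peaks and 24.6 (23.4 to 26.0) in those with summits in order. In the other peaks it was 24.5 (23.6 to 25.5) with inverted summits and 28.3 (27.9 to 28.8) with summits in order. Medians there were 387.5 bp and 87 ChIP reads with inverted summits, and 76 bp and 73 ChIP reads with summits in order. The same limit holds for these lengths, as 503 of the 643 other peaks of 200 bp or more were inverted.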

How the data were processed

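Zac1 ChIP-seq and input chromatin of transfected Neuro-2A cells were analysed from 1 peak table. Per the labels' protocols, libraries were made from 10 ng of DNA, sized at 200 bp with adapters and amplified by 18 PCR cycles. Peaks came from CisGenome, to judge by column names per the file headers, and lie on mm9, per the submitters' processing notes. Alignment, read filters, thresholds and the combination of replicates are not described in the labels or headers. The deposited read counts are whole numbers per peak region, strand and busiest window. The largest window fold is a log2 value, the false discovery rate a p-value-like quantity, the strand balance a fraction and the rank a score, all from the authors' deposited table. Ranks run to 4688, and 50 of them were not analysed here.

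The authors' window folds fitted log2((ChIP + 1)/(k × input + 1)), with a pseudocount of 1, in 4638 of 4638 peaks at k = 0.696 and in 3900 without scaling (tolerance 5e-06). Each fold is ChIP over input reads times k. Library totals were not used here, so depth is the 388156 ChIP and 20321 input reads inside peaks. Intervals are exact at 95% (Clopper-Pearson for folds, shares and ratios of reads, conditional for ratios of folds, Poisson for means), from SciPy 1.17.1 and pandas 2.3.3, and were tested on simulated data. The pass limit, number of draws and simulated counts of that test were reset after a smaller run fell short for ratios of folds. Simulated counts for the intervals varied by counting error only. With 1 value per group no test was made. The members, named peaks, run distance, read classes and blocks were chosen with earlier results of these data known. Named are the 10 best ranked members, the 10 with most ChIP reads, the 5 with most input, the 5 highest and lowest folds, the longest run and the runs of 4 or more. Parts of the rule that need genes or sequence of mm9 were not applied. Alternatives were stricter rank and strand limits, other read measures, joining of peaks and other comparison sets.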

Additional observations from a re-analysis of the deposited data

How the results depend on the processing

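Of 60 alternative values, 30 stayed within the interval of the reported one and 30 moved out of it. For peaks per Mb, 1.5 times served as the limit. Moves with unscaled input, other call or neighbour limits, joined peaks, or density after peaks were dropped follow from the setting itself. The cause of the other moves was not tested. Only relative fold, relative ChIP reads and relative input reads could count as reversed, by crossing 1, and 0 did. The share with a lower limit above 10 lay under that of all peaks as reported. It lay slightly above that of all peaks from the busiest windows, and so did the share at a limit of 5. For called and neighbour shares, the interval counts peaks as independent, which members of a run are not. Among the 2319 best ranked peaks, values were 29.0 for the fold (24.5 as reported), 0.788 for the fold relative to other peaks (0.883), 1.20 for relative ChIP reads (1.16), 1.52 for relative input reads (1.32), 72.7% for the share with a lower limit above 10 (54.8%), against 81.0% of all peaks so ranked, and 7.17 peaks per Mb (14.0). The 1000 best ranked gave, for the fold, 30.6, relative fold 0.759, relative input 1.54, share 79.3% against 89.4% of all 1000, 3.83 peaks per Mb and 37.0% with a neighbour within 10 kb (58.3%). A further limit kept only peaks whose weaker strand had a busiest window of at least 20 ChIP reads. Relative ChIP reads were then 1.12, the share 64.7% against 70.8% of all peaks kept, density 7.08 per Mb and neighbours 51.8%. These limits shrink density and neighbours by removing peaks. Without scaling of the input the fold was 17.1 and the share 22.9%, against 26.7% of all peaks. From the busiest windows the fold was 19.4, relative ChIP 1.09, relative input 1.20 and the share 9.82%, against 9.77% of all peaks. Joined within 10 kb, relative reads per region were 1.42 for ChIP and 1.60 for input, at 8.58 regions per Mb. Joining made 206 regions of the 336 distal peaks and 3211 of the 4302 others. It sums the reads of neighbours, so these ratios also count the closer spacing of the distal peaks. Relative ChIP reads were 1.18 without chromosomes 4, 8 and 11 and 1.14 in peaks shorter than 200 bp, an alternative chosen after seeing the data. A lower limit of 5 gave 98.5%, against 97.6% of all peaks, and 16.7% and 95.8% had a neighbour within 1 and 100 kb. Omitting the run of 10 peaks moved none of its 8 values out of the interval. No paired analysis was possible because values are not given per library, and for this reason no replicate could be left out.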
